A study of Homo sapiens with 9 samples.

Results

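This section describes how the transcriptome of ATG7-deficient small cell lung cancer cells differs once the p62 gene SQSTM1 is lost as well. The comparison takes 6 of the 9 libraries of the series, chosen by their labelled genotype: 3 from DMS273 cells in which CRISPRv2 was used to knock out ATG7 and SQSTM1 (ATG7/SQSTM1 KO) and 3 from DMS273 cells with the ATG7 knockout alone (ATG7 KO). All 6 libraries thus carry the ATG7 knockout, and SQSTM1 is the only labelled difference between the groups. The remaining 3 libraries, from cells given a scrambled guide (control), serve as the reference level with both genes present. DMS273 is an established human small cell lung cancer line, and the labels name no drug or other treatment of these cells. They do not say whether each knockout is 1 clone or a pool, nor whether the 3 libraries of a group are separate cultures. If each knockout is 1 derived population, changes due to SQSTM1 loss and other differences between the derived populations cannot be told apart, and if libraries of a group share a culture, the p-values reflect no more than the spread among these libraries, possibly of technical origin.

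ATG7 is the enzyme that activates ubiquitin-like proteins of the ATG8 family and ATG12 so that autophagosomes can form. The protein p62 is a selective autophagy receptor that carries ubiquitylated cargo to the autophagosome and is degraded with it, so it is known to build up in cells without ATG7. It is also a signalling scaffold: it can hold KEAP1 away from the antioxidant transcription factor NRF2, and it binds TRAF6 and other adaptors of NF-kB signalling. Small cell lung cancers are mostly neuroendocrine, driven by transcription factors such as NEUROD1, with a rarer non-neuroendocrine state in which YAP1 is expressed.

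The 6 libraries held 28850265 to 34222098 counts each, and libraries of a group differed from each other by more than sampling noise (chi-square per degree of freedom 4.47 to 7.03). On a multidimensional scaling plot of all 9 libraries the ATG7 KO libraries lay apart from the other 6 along dimension 1, which held 62% of the variance. Levels are counts per 1e6 library counts after scaling by the trimmed mean of M-values (TMM), written CPM, as mean ± SD over 3 libraries of a group where a ± is given. Differences are log2 differences of ATG7/SQSTM1 KO minus ATG7 KO with their standard error (SE), and a gene is called changed at a Benjamini-Hochberg adjusted p under 0.05 in edgeR's quasi-likelihood test over all tested genes. Levels of different genes are not corrected for gene length and are compared only within a gene.

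The targeted genes were read first. SQSTM1 (ENSG00000161011, a protein-coding gene at GRCh38 chromosome 5, 179806398 to 179838078, plus strand) held 388, 396 and 389 CPM with the ATG7 knockout alone and 55.3, 48.8 and 51.6 CPM with both knockouts. Every ATG7/SQSTM1 KO library lay far below every ATG7 KO library, as its label says, and the control libraries stood at 380.2, 375 and 373 CPM. The fall was 7.52-fold (log2 difference −2.91, SE 0.0355, edgeR adjusted p = 9.66e-23). ATG7, which both groups lack by label, stood at 12.0, 9.99 and 13.0 CPM in ATG7 KO and 11.2, 10.4 and 10.2 CPM in ATG7/SQSTM1 KO, against 28.1, 26.4 and 26.8 CPM in control. The groups overlapped for ATG7 and the difference of −0.14 (SE 0.0845) did not pass the test (edgeR adjusted p = 0.176), although without ATG7 KO replicate 2 it was −0.24 (adjusted p = 0.0127). Guide sites were not used here, and mRNA can persist from a gene whose reading frame is disrupted.

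**Figure D1:**
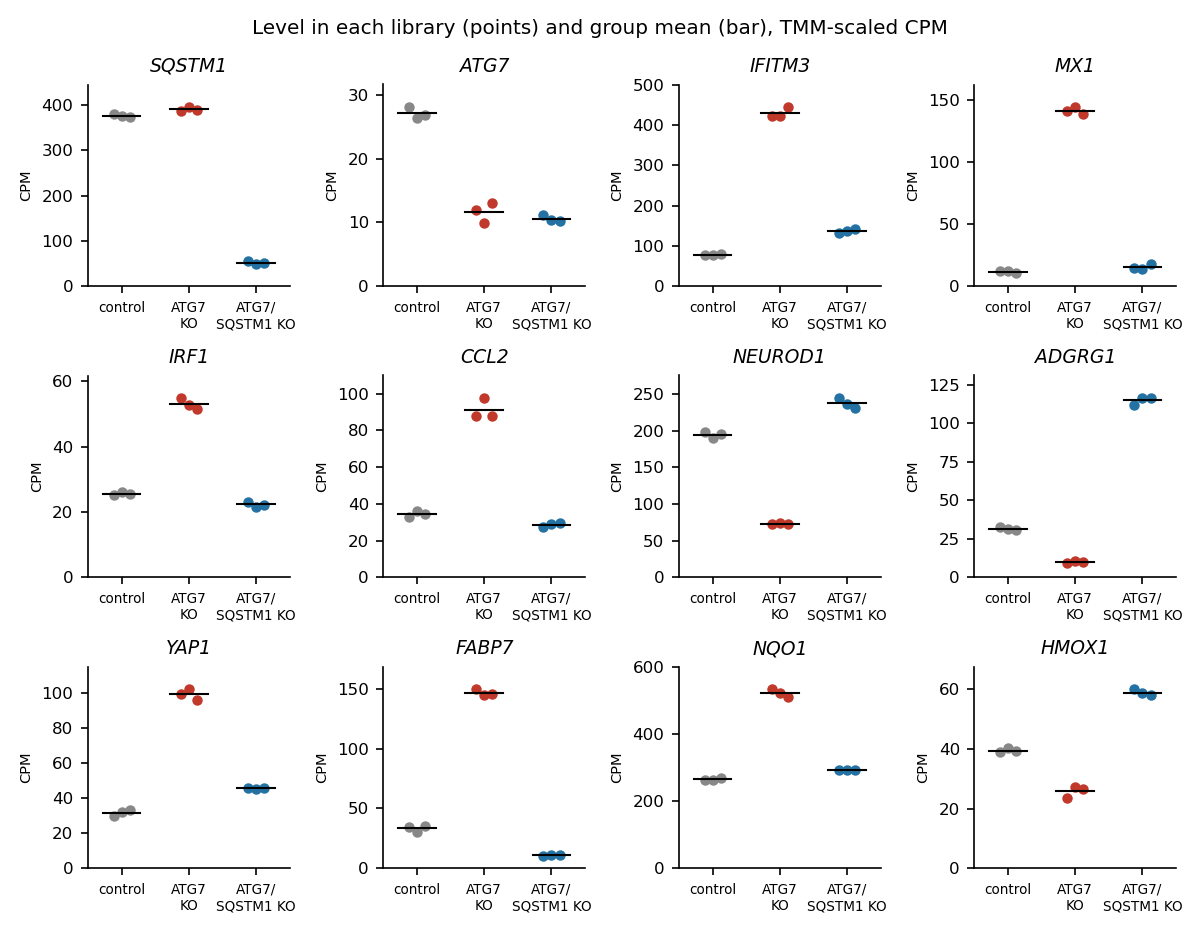
TMM-scaled CPM (vertical axes, from 0) of 12 genes in each of the 9 libraries (points: control grey, ATG7 KO red, ATG7/SQSTM1 KO blue) with group means (bars). SQSTM1 falls from a mean of 391 to 51.9 CPM between the knockouts while ATG7 stays between 10.6 and 11.7 CPM, the interferon and inflammatory genes and YAP1 are highest in ATG7 KO, and NEUROD1 and ADGRG1 are lowest there.

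Across the 18847 genes tested, 11395 (60.5%) differed between the knockouts, 5753 higher (30.5%) and 5642 lower (29.9%) in ATG7/SQSTM1 KO. Most of these differences were small: 2490 of the genes called higher and 3649 of those called lower differed by less than 1.414-fold, while 1710 rose (9.07%) and 727 fell (3.86%) by 2-fold or more (the falls numbered 412 when only the 15239 genes with a mean of at least 1 CPM were tested). At 8-fold or more there were 95 genes higher and 54 lower. The 3 libraries of each group did not overlap for 6319 genes that were higher (33.5%) and 6104 that were lower (32.4%). The median difference of all tested genes was 0.02. With so much of the transcriptome called, the gene groups below are described by their counts and medians beside these background shares, and by their size, rather than by being called alone. The shares depended on level: of the 4712 tested genes with the highest mean CPM, 51.5% fell and 28.3% rose. A list of abundant genes is to be read beside these shares too.

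**Figure D2:**
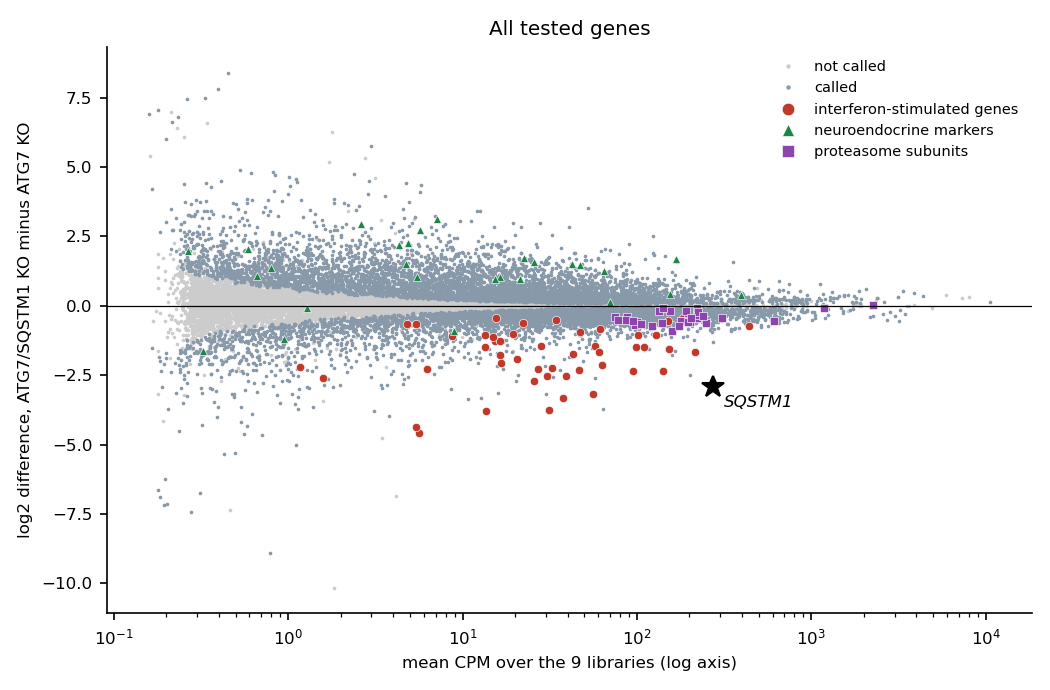
Log2 difference, ATG7/SQSTM1 KO minus ATG7 KO (vertical axis), against mean CPM over the 9 libraries (horizontal, log axis) for all 18847 tested genes; grey points were not called, blue-grey points were called, and 3 gene groups and SQSTM1 are marked. All 48 interferon-stimulated genes lie below 0, 23 of 27 neuroendocrine markers were called higher, and proteasome subunits form a narrow band below 0.

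Genes that interferon induces had the lowest median difference of the lists with at least 5 tested members. All 48 tested effector genes of the interferon response were lower in ATG7/SQSTM1 KO, with a median difference of −1.61, and 38 of them fell by at least 2-fold, beside 29.9% of all genes lower and 3.86% at least 2-fold lower. IFITM3, which blocks the entry of enveloped viruses and has close paralogs that can share its reads, stood at 423, 422 and 445 CPM in ATG7 KO and at 133, 137 and 142 CPM in ATG7/SQSTM1 KO, a 3.14-fold fall (log2 difference −1.65, SE 0.0320, edgeR adjusted p = 4.45e-20). MX1, an antiviral GTPase, went from 141, 144 and 138 to 14.8, 13.7 and 17.6 CPM, and its libraries in control stood at 12.3, 12.0 and 10.6 CPM. The ATG7/SQSTM1 KO libraries of MX1 thus lay just above the control libraries, and those of IFITM3 lay further above its control mean of 78.3 CPM. In RNA from a whole culture, fewer cells with this response and less RNA per cell cannot be told apart. OAS2, which makes the 2-5A signal on double-stranded RNA, fell from 81.9, 84.9 and 79.0 to 5.98, 6.14 and 6.31 CPM (13.3-fold), with 5.22, 6.65 and 5.86 CPM in control. None of these genes overlapped between the knockouts. The ubiquitin-like modifier ISG15 fell from 90.3 ± 1.75 to 15.6 ± 0.135 CPM, the tetherin gene BST2 from 60.8 ± 2.63 to 12.7 ± 0.562 CPM, IFIT1, which binds foreign capped RNA, from 73.7 ± 1.70 to 15.4 ± 0.259 CPM, and IFI6 from 309 ± 17.0 to 60.1 ± 3.43 CPM. IFI27 (log2 difference −3.30), MX2 (−3.80), TRIM22 (−4.58) and XAF1 (−4.36) were among the 15 largest falls of genes with at least 5 CPM in the higher group and no overlap between the groups, the limit kept for naming the largest changes (many genes of lower level had larger log2 differences). The summed level of the 48 genes was 4839.99 to 4911.2 CPM in the ATG7 KO libraries, 1812.74 to 1888.75 CPM in the ATG7/SQSTM1 KO libraries and 1603.95 to 1651.1 CPM in control.

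Many interferon-stimulated genes carry in their promoters a sequence bound by transcription factors that interferon activates, the interferon-stimulated response element. The promoters of 4 effector genes are shown because they hold this element and fell by 1.65 to 3.30 on the log2 scale. Each line gives the 200 bases before the RefSeq start of the gene (GRCh38.p14), 5′ to 3′ on the gene's strand, with matches to the core of this element in capitals: a GAAA, any 2 bases and a second GAAA, on either strand. IFI27 is at chr14:94110536-94110735 (plus strand), ISG15 at chr1:1013297-1013496 (plus), IFIT1 at chr10:89392423-89392622 (plus) and IFITM3 at chr11:320861-321060 (minus).
IFI27: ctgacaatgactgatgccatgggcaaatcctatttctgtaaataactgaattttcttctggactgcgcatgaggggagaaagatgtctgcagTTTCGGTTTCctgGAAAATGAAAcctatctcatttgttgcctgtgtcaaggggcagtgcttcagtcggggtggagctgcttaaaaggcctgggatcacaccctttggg
ISG15: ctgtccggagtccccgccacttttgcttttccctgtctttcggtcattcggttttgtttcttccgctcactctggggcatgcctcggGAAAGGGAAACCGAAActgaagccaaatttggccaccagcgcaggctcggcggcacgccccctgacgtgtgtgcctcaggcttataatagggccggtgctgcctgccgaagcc
IFIT1: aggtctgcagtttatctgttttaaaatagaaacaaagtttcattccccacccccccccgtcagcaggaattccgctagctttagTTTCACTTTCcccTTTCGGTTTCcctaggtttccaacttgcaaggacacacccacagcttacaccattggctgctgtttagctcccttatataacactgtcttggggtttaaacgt
IFITM3: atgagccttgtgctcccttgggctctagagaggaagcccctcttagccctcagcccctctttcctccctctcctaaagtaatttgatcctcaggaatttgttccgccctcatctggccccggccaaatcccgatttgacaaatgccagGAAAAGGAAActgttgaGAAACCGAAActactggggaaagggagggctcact

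Each of these promoters holds 2 matches, and those of ISG15 overlap each other. RefSeq promoters of 300 bases (250 before to 50 after the start) could be matched to 12668 of the 18847 tested genes, and 348 of them (2.75%) hold this core. Among genes at least 2-fold lower in ATG7/SQSTM1 KO the share was 51 of 447 (11.4%), among genes at least 2-fold higher 20 of 1045 (1.91%), and among genes not called 104 of 4163. It was 28 of 38 (73.7%) for the interferon effector genes with a promoter and 9 of 16 (56.3%) for the MHC class I genes described below. The gamma activated site motif TTCNNNGAA, on either strand, was found in 55 of the 447 lower genes (12.3%), 59 of the 1045 higher genes (5.65%) and 792 of all 12668 (6.25%). TGANNNNGC, a short and loose form of the antioxidant response element that NRF2 binds, was found on either strand in 40.9% of the 2-fold lower genes. It was found in 39.5% of the 2-fold higher genes and 42.8% of all. A match this common cannot tell NRF2 sites from other sequence, so these shares do not bear on NRF2. A match is a description of the letters in the window and not evidence of binding, and the promoters of MX1, OAS1 and XAF1, for example, held no such match in the 200 bases before their RefSeq start.

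Sensors and transducers of the interferon pathway had a smaller median fall than its effectors. Of 30 tested, 24 fell and 4 rose, with a median of −0.50. At least 2-fold falls numbered 10, and the lowest difference was −5.34, beyond the lowest of the effectors (−4.58). IRF1, a transcription factor that interferon induces, stood at 54.9, 52.8 and 51.6 CPM in ATG7 KO and 23.2, 21.6 and 22.0 CPM in ATG7/SQSTM1 KO, a 2.38-fold fall (log2 difference −1.25, SE 0.0460, edgeR adjusted p = 1.64e-15). The groups did not overlap for IRF1, and IRF9, a DNA-binding factor of the response, fell by 0.76. Among receptors of foreign nucleic acid, the nuclear DNA sensor IFI16 fell from 116 ± 2.29 to 19.1 ± 2.15 CPM, below its control level of 37.0 ± 2.52 CPM. The RNA sensor DDX58 (RIG-I) fell from 45.7 ± 2.58 to 8.19 ± 1.64 CPM and IFIH1 from 50.3 ± 0.480 to 22.6 ± 1.48 CPM. The DNA sensor CGAS (−0.79) and its adaptor STING1 (−0.33) fell by less. The RNA-sensing adaptor MAVS rose by 0.15, the kinase TYK2 by 0.19 and TICAM1, the adaptor of TLR3, by 0.82. IRF7 was not tested because it had too few counts.

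The machinery that shows peptides on MHC class I was lower throughout. All 20 tested genes fell, with a median of −0.87, and 5 fell by at least 2-fold. B2M, the shared light chain, stood at 732, 705 and 729.5 CPM in ATG7 KO and at 412, 438 and 434 CPM in ATG7/SQSTM1 KO (log2 difference −0.76, SE 0.0261, edgeR adjusted p = 6.16e-16), beside 400.3, 403 and 404 CPM in control. The groups did not overlap for B2M, and it was one of the 5 most abundant genes to fall by at least 1.5-fold. The peptide transporter subunits TAP1 and TAP2 fell by 1.20 and 1.13, the immunoproteasome subunit PSMB9 by 1.37, the trimming peptidase ERAP2 by 0.94, and the transactivator NLRC5 by 0.36. HLA-B (−0.94) and HLA-C (−0.89) fell too, but near-identical paralogs can share reads and their levels are uncertain. The MHC class II chain HLA-DRA, among the 15 largest falls above that 5 CPM limit, went from 21.8 ± 0.513 to 2.13 ± 0.403 CPM, with 8.31 ± 0.447 CPM in control.

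Inflammatory targets of NF-kB fell without an exception among those called. Of 36 tested, 32 were lower and 0 higher (median −0.87), 16 of them by at least 2-fold. The monocyte chemokine CCL2 stood at 88.0, 97.7 and 87.7 CPM in ATG7 KO and 27.4, 29.2 and 29.5 CPM in ATG7/SQSTM1 KO (3.18-fold lower, edgeR adjusted p = 1.07e-16). All 3 ATG7/SQSTM1 KO libraries lay below the control range of 32.9, 36.4 and 34.5 CPM. CCL5, a T cell chemokine, fell from 50.8 ± 1.97 to 17.3 ± 1.54 CPM, the adhesion molecule ICAM1 from 90.1 ± 4.10 to 39.3 ± 2.71 CPM, TNFAIP2 from 219 ± 9.97 to 103 ± 5.93 CPM and IL32 from 169.7 ± 1.22 to 84.0 ± 0.497 CPM. The feedback inhibitors NFKBIA (−0.63) and TNFAIP3 (−0.38) fell by less. CXCL8 (6.86 ± 0.666 to 3.49 ± 0.267 CPM) and IL6 (1.42 ± 0.369 to 0.320 ± 0.0802 CPM) fell at low levels.

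Complement and immune checkpoint genes were mixed but mostly lower, with 15 of 19 falling and 3 rising (median −1.03). The central complement component C3 fell from 477 ± 4.71 to 195 ± 4.40 CPM, and the initiating proteases C1S and C1R fell by 1.92 and 1.47. IDO1, which degrades tryptophan, fell from 6.04, 6.07 and 5.62 to 0.350, 0.515 and 0.255 CPM (15.8-fold), and its control libraries stood at 4.91, 5.10 and 5.31 CPM. The ATG7 KO libraries of IDO1 lay just above control and the ATG7/SQSTM1 KO libraries far below both. The galectin LGALS9 fell by 2.65, and CD274, which encodes PD-L1, was low in all groups (0.865 ± 0.428 CPM in control, 1.79 ± 0.164 in ATG7 KO and 0.742 ± 0.226 in ATG7/SQSTM1 KO). The complement inhibitors CD46 and CD55 rose by 0.14 and 0.53.

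Neuroendocrine genes moved the opposite way. Of 27 tested neuroendocrine markers 23 rose and 3 fell in ATG7/SQSTM1 KO, 18 rising by at least 2-fold, with a median of 1.37. NEUROD1 stood at 72.7, 74.4 and 72.8 CPM in ATG7 KO and at 245, 237 and 231 CPM in ATG7/SQSTM1 KO, a 3.24-fold rise (log2 difference 1.70, SE 0.0309, edgeR adjusted p = 1.75e-20). Every ATG7/SQSTM1 KO library also lay above the control libraries, which held 198, 190.2 and 195 CPM. INSM1, a zinc finger factor of neuroendocrine cells, rose from 30.3, 30.02 and 31.4 to 78.4, 69.2 and 72.0 CPM, against 87.5, 90.4 and 89.9 CPM in control. The knockouts did not overlap for INSM1, and its ATG7/SQSTM1 KO libraries lay between those of ATG7 KO and control. The adhesion molecule NCAM1 rose from 6.64 ± 0.791 to 21.7 ± 0.245 CPM (control 39.0 ± 1.74 CPM), the vesicle protein SYP from 23.5 ± 1.61 to 64.3 ± 3.31 CPM, the granule protein CHGB from 10.2 ± 0.407 to 30.6 ± 0.916 CPM, and the RNA-binding protein ELAVL4 by 2.74 on the log2 scale. DLL3, a Notch ligand targeted in this cancer, rose from 10.3 ± 0.842 to 21.1 ± 0.984 CPM. The granule protein CHGA was low (1.95 ± 0.186 and 5.60 ± 0.173 CPM in the knockouts). Of the labelled cell type's markers NEUROD1, INSM1, SYP and NCAM1 were detected in every library, while GRP, CALCA, STMN2 and SYT4 had too few counts to be tested. The exceptions were the secretogranin SCG2 (12.1 ± 0.953 to 6.49 ± 0.316 CPM) and, at low levels, SCG5 (0.528 ± 0.167 to 0.165 ± 0.0653 CPM) and FOXA2 (1.40 ± 0.304 to 0.613 ± 0.228 CPM). The summed level of the 27 genes was 743.817 to 758.172 CPM in the ATG7 KO libraries, 1282.64 to 1305.54 CPM in ATG7/SQSTM1 KO and 1202.02 to 1235.75 CPM in control.

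Genes of synapses and neurites followed the same direction, 28 of 37 rising and 3 falling with a median of 1.07. CPLX2, a complexin that clamps vesicle fusion, rose from 3.99, 3.62 and 3.54 to 30.9, 28.7 and 28.7 CPM (7.92-fold). Its 3 ATG7/SQSTM1 KO libraries lay just above the control libraries at 23.5, 27.3 and 24.5 CPM. SNAP25, a component of the fusion machinery, rose from 2.14 ± 0.476 to 9.40 ± 0.364 CPM, the growth cone protein GAP43 from 9.75 ± 0.253 to 45.7 ± 2.64 CPM and the neuronal tubulin TUBB3 from 32.2 ± 0.733 to 67.6 ± 1.74 CPM. SYT1, a calcium sensor of vesicle release, fell by 0.39, as did the sodium channel SCN2A by 0.33.

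Markers of the non-neuroendocrine state fell: 25 of 28 were lower and 2 higher, with a median of −0.79. YAP1, a coactivator of the Hippo pathway, stood at 99.7, 103 and 95.9 CPM in ATG7 KO and 46.1, 45.1 and 46.2 CPM in ATG7/SQSTM1 KO (log2 difference −1.12, SE 0.0408, edgeR adjusted p = 1.47e-15). The ATG7/SQSTM1 KO libraries lay between ATG7 KO and the control libraries at 30.2, 31.9 and 33.4 CPM. PLAU, the urokinase protease, fell from 59.4, 64.9 and 63.3 to 6.68, 7.62 and 6.44 CPM (9.07-fold), well below its control libraries at 19.3, 22.5 and 21.5 CPM. The receptor kinase AXL fell from 55.0 ± 3.89 to 21.6 ± 1.18 CPM, the hyaluronan receptor CD44 from 75.2 ± 0.323 to 33.2 ± 2.46 CPM and annexin ANXA1 from 147 ± 1.84 to 65.8 ± 2.43 CPM. Vimentin (VIM) fell by only 0.25, and EGFR rose by 0.76. Transcriptional targets of YAP and TAZ did not move as a group, with 10 of 25 higher, 11 lower and a median of −0.08. Within that list NT5E (−2.19) and F3 (−1.02) fell, AMOTL1 (1.10) and PTPN14 (0.81) rose, CCN1 rose by 0.27, and CCN2 (0.37) and ANKRD1 (−0.06) did not pass the test.

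**Figure D3:**
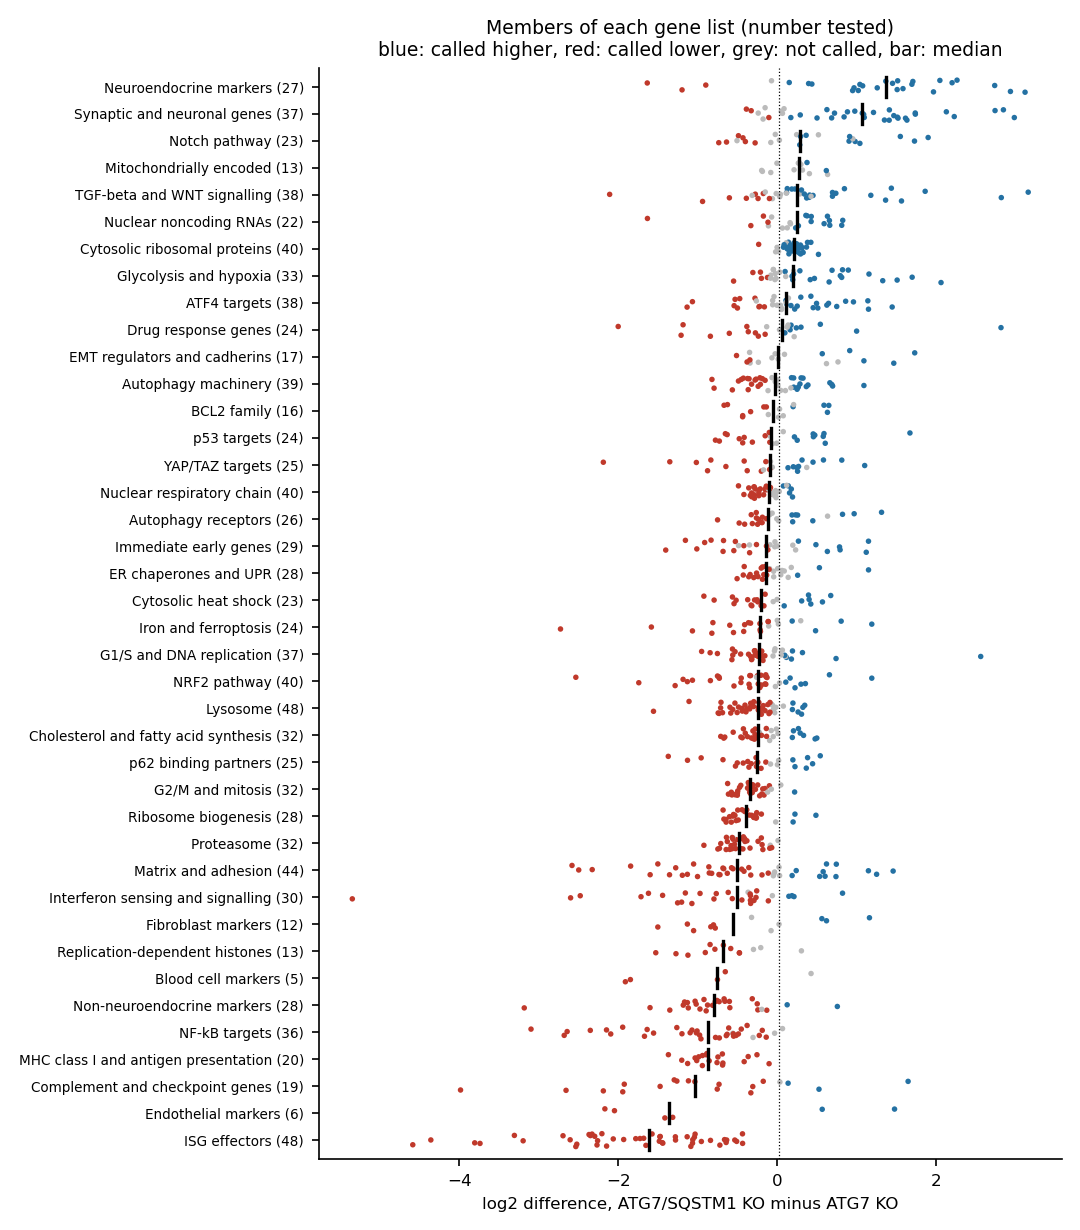
Log2 difference, ATG7/SQSTM1 KO minus ATG7 KO (horizontal axis), of each tested member of 40 gene lists with at least 5 tested members (rows, number tested in parentheses, ordered by median); blue points were called higher, red lower, grey not called, and bars are medians. Neuroendocrine markers (median 1.37) lie at the top and interferon-stimulated effectors (median −1.61) at the bottom, while the dotted line marks the median of all genes (0.02).

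Matrix and adhesion genes were split, 28 of 44 lower and 11 higher (median −0.50). Fibronectin, FN1, fell from 379.5, 409.6 and 406 to 69.7, 70.4 and 71.9 CPM (5.64-fold, edgeR adjusted p = 5.24e-21), and all 3 ATG7/SQSTM1 KO libraries lay below the control range of 131, 144 and 135 CPM. COL6A3 fell by 2.58, tenascin TNC by 2.33, COL3A1 by 1.13 and the integrin ITGA3 by 1.27. The basement membrane collagen COL4A2 rose from 61.5 ± 0.926 to 136 ± 6.30 CPM, as did the fibrillin FBN2 (1.25) and the proteoglycan VCAN (1.46), and all 3 of these stood lower in control (62.9 ± 2.57, 11.8 ± 0.959 and 4.79 ± 0.457 CPM) than in ATG7/SQSTM1 KO. Of 13 fibroblast markers, which share collagens with this list, 12 were tested, and their summed level was 769.945 to 811.731 CPM in ATG7 KO, 472.387 to 493.445 CPM in ATG7/SQSTM1 KO and 219.296 to 235.787 CPM in control. Their part in the matrix result was not tested. Among regulators of the epithelial to mesenchymal transition and cadherins 5 of 17 rose (29.4%) and 3 fell (17.6%). These shares were no higher than the 30.5% and 29.9% of all tested genes, so the list as a whole did not stand out. N-cadherin, CDH2, rose from 13.5 ± 0.895 to 37.4 ± 2.19 CPM, ZEB1 rose by 0.91, the keratins KRT8 and KRT18, which have many pseudogene copies, fell by 0.38 and 0.51, and E-cadherin, CDH1, did not pass the test (7.98 ± 0.920 and 7.63 ± 0.175 CPM).

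In the Notch pathway 10 of 23 genes rose and 6 fell (median 0.29). HES6, a neural factor that opposes HES1, rose from 24.1 ± 1.24 to 79.8 ± 7.44 CPM, whereas HES1 fell from 22.4 ± 0.732 to 16.02 ± 1.14 CPM and the ligand JAG1 fell by 0.73. Of 38 genes of TGF-beta and WNT signalling 21 rose and 8 fell (21 and 5 by library totals instead of TMM). The WNT targets LGR5 (5.26 ± 0.483 to 19.2 ± 0.130 CPM), LEF1 (12.5 ± 0.724 to 28.3 ± 1.52 CPM) and NKD1 (11.4 ± 0.284 to 33.7 ± 0.494 CPM) rose and the non-canonical ligand WNT5A fell by 0.94. NKD1 lies in a stretch of chromosome 16 described below in which most genes rose.

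The lists closest to p62 itself changed by less. Of 40 genes of the NRF2 pathway 30 fell and 7 rose, with a median of −0.23 and 6 falling by at least 2-fold. NQO1, a classical NRF2 target, stood at 535, 524 and 511 CPM in ATG7 KO and 292, 292 and 294 CPM in ATG7/SQSTM1 KO (log2 difference −0.84, SE 0.0248, edgeR adjusted p = 5.08e-17), with 263, 263 and 268 CPM in control. The cystine transporter SLC7A11 fell from 61.0, 66.0 and 62.2 to 30.9, 30.7 and 28.8 CPM, below its control libraries at 53.7, 51.1 and 45.5 CPM. Glutathione synthesis genes fell by unequal amounts, GCLC by 0.73 and GCLM by 0.20, and the thioredoxin system genes TXNRD1 and SRXN1 fell by 0.20 and 0.24. The efflux pump ABCC3 fell from 37.4 ± 1.24 to 16.5 ± 1.06 CPM and malic enzyme ME1 from 232 ± 3.72 to 140.2 ± 6.60 CPM. HMOX1, heme oxygenase, which NRF2 induces and BACH1 represses, went the other way: 23.5, 27.2 and 26.7 CPM in ATG7 KO, 60.1, 58.7 and 58.0 CPM in ATG7/SQSTM1 KO and 38.9, 40.2 and 39.3 CPM in control. The ATG7/SQSTM1 KO libraries of HMOX1 were the highest of the 9 (log2 difference 1.19, SE 0.0491, edgeR adjusted p = 1.01e-14). The mRNA of NRF2 itself, NFE2L2, fell by 0.14.

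Among 25 genes whose products bind p62, 16 fell (64%) and 6 rose (24%), with a median of −0.25. Beside them, 29.9% of all tested genes and 51.5% of the 4712 most abundant ones fell. FHOD1 (0.54) and CYLD (0.23), which rose, lie in the chromosome 16 stretch described below. The apoptosis initiator CASP8 fell from 12.4 ± 0.278 to 4.81 ± 0.671 CPM, the kinase RIPK1 from 30.8 ± 0.691 to 15.9 ± 1.20 CPM, the ubiquitin ligase TRIM21, itself inducible by interferon, from 13.3 ± 0.491 to 6.08 ± 0.371 CPM, and the segregase VCP from 614 ± 8.11 to 383 ± 3.70 CPM. VCP was another of the 5 most abundant genes to fall by at least 1.5-fold. The atypical kinase PRKCI rose by 0.45, and TRAF6 did not pass the test (−0.08). Core autophagy machinery genes were split, 14 of 39 rising and 17 falling, and the sign of their median (−0.02) depended on scaling, being 0.01 with library totals. ATG5 fell by 0.56, BECN1 by 0.49, ATG101 by 0.79 and ATG3 by 0.37, while WIPI1 rose by 0.70, ATG16L2 by 1.09 and ULK2 by 0.69. Of 26 autophagy receptors other than SQSTM1, 13 fell (50%, beside that same 51.5%) and 8 rose (30.8%). NBR1, the receptor most like p62, fell by 0.26, OPTN by 0.75 and CALCOCO2 by 0.48. The mitophagy receptors BNIP3 (144 ± 2.37 to 254 ± 17.8 CPM) and BNIP3L rose by 0.82 and 0.45, and the ER receptor RETREG1 rose by 1.31 at a low level.

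Lysosomal genes were mostly lower, with 36 of 48 falling and 6 rising (median −0.23). Cathepsin CTSS fell from 169.6 ± 3.84 to 57.7 ± 2.99 CPM, CTSD by 0.73, the membrane protein LAMP1 by 0.74 and the regulator TFEB by 0.56. Prosaposin, PSAP, rose by 0.31. Proteasome genes fell more evenly: 29 of 32 subunits were lower and 0 higher, with a median of −0.48 and none past 2-fold. The ATPase subunit PSMC1 stood at 210.2, 217 and 206 CPM in ATG7 KO and 108, 112 and 114 CPM in ATG7/SQSTM1 KO (log2 difference −0.92, SE 0.0356, edgeR adjusted p = 3.69e-15). Its control libraries, at 156, 147 and 163 CPM, lay between the knockouts. The lid subunit PSMD12 fell by 0.74 and PSMD2 by 0.55, whereas the catalytic PSMB5 did not pass the test (−0.09).

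Stress programmes differed in direction. Of 38 ATF4 targets 18 rose and 10 fell (median 0.11). Asparagine synthetase ASNS rose from 135 ± 1.91 to 208 ± 1.93 CPM, DDIT3 by 1.14, ATF3 by 1.15 and ALDH1L2 by 0.86, while WARS1, which interferon also induces, fell by 1.13, and the amino acid transporters SLC7A5 and SLC3A2 fell by 0.54 and 0.50. TRIB3 (0.06) and CHAC1 (0.14), targets of the same pathway, did not pass the test. Of 28 ER chaperone and unfolded protein response genes 16 fell (57.1%) and 3 rose (16 and 7 with library totals). Beside them, 51.5% of the 4712 most abundant tested genes fell. HSPA5 was down by 0.17 and XBP1 was not past the test (−0.04). HERPUD1 rose from 47.6 ± 0.955 to 106 ± 5.22 CPM, but it lies in the chromosome 16 stretch described below. Of 23 cytosolic heat shock genes 14 fell (60.9%, beside that same 51.5%) and 7 rose: HSP90AB1 fell by 0.56 and DNAJA1 by 0.92, while HSPA4L rose by 0.68. Genes of iron handling and ferroptosis fell in 16 of 24 cases (66.7%, beside that same 51.5%) and rose in 4. Ceruloplasmin CP fell from 38.2 ± 1.08 to 5.79 ± 0.787 CPM, the metalloreductase STEAP4 from 19.2 ± 0.762 to 6.40 ± 0.330 CPM (control 0.494 ± 0.124 CPM), the transferrin receptor TFRC from 894 ± 18.99 to 592 ± 15.8 CPM and ferritin FTH1, which has many pseudogene copies, by 0.33, and GPX4 did not pass the test (0.02).

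In metabolism, 18 of 33 hypoxia and glycolysis genes rose and 5 fell (median 0.20). The pyruvate dehydrogenase kinase PDK1 rose from 45.6 ± 2.91 to 130.1 ± 4.71 CPM, above its control level of 94.2 ± 5.42 CPM. CA9 rose by 0.80, KDM3A by 0.81 and VEGFA by 0.47, whereas HIF1A fell by 0.30 and the glycolytic LDHA (−0.02) and SLC2A1 (−0.03) did not pass the test. Cholesterol and fatty acid synthesis genes fell in 19 of 32 cases (59.4%) and rose in 7 (median −0.24), beside 51.5% lower among the 4712 most abundant tested genes. SREBF1 and ELOVL6 fell by 0.67 and 0.66, FASN by 0.26, and the regulators SREBF2 and INSIG1 rose by 0.48 and 0.33. Nuclear genes of the respiratory chain were called lower in 23 of 40 cases (57.5%, beside that same 51.5%) and higher in 5, with a median of −0.10. Counts from mitochondrially encoded genes took 4.51% of an ATG7 KO library and 5.48% of an ATG7/SQSTM1 KO library on average, a difference of 0.968 points (exact two-sided permutation test p = 0.1, the smallest that 3 against 3 libraries allow). Without the 10 most abundant genes of each library the shares were 1.73% and 1.84%, a difference of 0.113 points (exact permutation test p = 0.5). That step takes out most of the mitochondrially encoded counts themselves, so it cannot decide whether their share differed. Of the 13 mitochondrially encoded genes that code for protein, 2 were called higher, MT-ND5 and MT-ND4L, and this count was 1 or 0 under most alternatives. The shares above also count mitochondrially encoded genes that do not code for protein. Of all 36 tested genes of the mitochondrial genome, 9 were called higher (25%) and 0 lower.

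Growth and division genes were mostly lower in ATG7/SQSTM1 KO. Of 32 G2/M genes 28 fell and 1 rose (median −0.34), among them CCNB1 (247 ± 7.10 to 167 ± 2.93 CPM), CCNA2 (−0.62), CDC20 (−0.61) and AURKA (−0.31). Of 37 G1/S and replication genes 24 fell (64.9%) and 7 rose (median −0.23), beside 51.5% lower among the 4712 most abundant tested genes. RRM2, a subunit of ribonucleotide reductase, fell from 374 ± 11.9 to 209 ± 5.03 CPM and thymidine kinase TK1 by 0.95 on the log2 scale, while the cyclin CCND2 rose from 9.79, 11.4 and 10.5 to 61.9, 64.6 and 60.8 CPM, against 23.5, 26.8 and 24.8 CPM in control. CCND2 and its partner kinase CDK6 (0.74) were exceptions to the direction of the list. Of 28 ribosome biogenesis genes 24 fell and 3 rose (median −0.39), with NIP7 down by 0.60 and RRP9 by 0.67. MYC, which drives this programme and is very abundant in these cells, rose from 1149, 1169 and 1154 to 1596, 1619 and 1658 CPM, a 1.40-fold rise (edgeR adjusted p = 3.01e-14). Its ATG7 KO libraries overlapped the control libraries (1174, 1169 and 1158 CPM). Cytosolic ribosomal protein genes, whose reads can be shared with processed pseudogenes, rose in 35 of 40 cases and fell in 1 (median 0.21), RPL13A by 0.52 and RPL3 by 0.38. Replication-dependent histone genes fell in 10 of 13 cases with 0 rises, H1-2 from 16.2 ± 2.00 to 6.71 ± 0.709 CPM. Histone copies are near-identical and most of their transcripts are not polyadenylated, and these libraries were made by rRNA depletion.

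Signalling and survival lists had no common direction. Of 29 immediate early and ERK-response genes 14 fell and 7 rose. The ERK-pathway outputs ETV4 (12.8 ± 0.860 to 4.84 ± 0.140 CPM), ETV5 (37.8 ± 2.14 to 18.8 ± 0.746 CPM), DUSP6 (−1.15), SPRY4 (−0.83) and FOSL1 (−0.91) fell, while JUN rose from 35.3 ± 0.817 to 76.8 ± 2.53 CPM and FOS by 0.63. Of 24 p53 targets 11 fell and 9 rose (8 and 10 with library totals). CDKN1A rose by 0.61 and TP53INP1 by 1.67, while PHLDA3 fell by 0.73. In the BCL2 family 7 of 16 fell and 4 rose: the pro-apoptotic BAX and BID fell by 0.43 and 0.67, the pro-survival BCL2L1 by 0.62, while BCL2 and the pro-apoptotic BCL2L11 rose by 0.65 and 0.63. Among 24 genes linked to drug response 10 fell and 9 rose. SLFN11, whose loss is known to go with resistance to DNA-damaging drugs, rose from 28.3, 28.9 and 27.4 to 56.1, 57.1 and 56.1 CPM, with 22.2, 21.2 and 21.2 CPM in control, so that its ATG7/SQSTM1 KO libraries were the highest of the 9. TOP1, the target of camptothecins, fell by 0.36, ALDH3A1 fell from 3.72 ± 0.448 to 0.928 ± 0.0521 CPM, and the efflux pump ABCB1 stayed under 1 CPM in all groups (0.444 ± 0.124 CPM in control, 0.102 ± 0.0898 in ATG7 KO and 0.728 ± 0.0271 in ATG7/SQSTM1 KO).

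Noncoding genes are given beside all tested genes, of which 30.5% rose and 29.9% fell. Of 912 lincRNA genes 274 rose (30.04%) and 107 fell (11.7%), and of 1127 antisense genes 248 rose (22.0%) and 111 fell (9.85%). The library kit keeps strand, but whether the counting used it is not given in the sources used here, so reads of an antisense gene and its partner cannot be told apart. Long noncoding genes together held 1.02% to 1.06% of counts in the ATG7 KO libraries, 1.23% to 1.26% in ATG7/SQSTM1 KO and 1.31% to 1.35% in control. Direction also went with level: of the 4712 tested genes with the lowest mean CPM 990 rose and 521 fell, and of the 4712 with the highest 1332 rose and 2429 fell. Among 22 known nuclear noncoding RNAs and small nucleolar RNA hosts 12 rose and 4 fell. GAS5 rose from 167 ± 4.62 to 297 ± 8.70 CPM, SNHG1 by 0.66, ZFAS1 by 0.66, MALAT1 by 0.63 and NEAT1 by 0.36, while the imprinted H19 fell from 38.2 ± 1.125 to 12.3 ± 1.36 CPM, against 2.39 ± 0.364 CPM in control.

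The 15 largest rises among genes that reached 5 CPM in ATG7/SQSTM1 KO without overlap of the groups were led by EPHA6. EPHA6, an ephrin receptor, stood at 0.0341, 0.168 and 0.255 CPM in ATG7 KO and 9.39, 8.62 and 7.74 CPM in ATG7/SQSTM1 KO (54.2-fold, edgeR adjusted p = 5.23e-13), with 0.214, 0.241 and 0.128 CPM in control. EPHA6 thus stood above 1 CPM in the ATG7/SQSTM1 KO libraries and in none of the other 6. Muscle creatine kinase CKM (0.243 ± 0.0653 to 6.63 ± 0.305 CPM, control 0.262 ± 0.0987) shared this pattern, and dystrophin DMD (0.965 ± 0.364 to 12.9 ± 0.223 CPM, control 0.972 ± 0.190) stood near 1 CPM in the other groups. ADGRG1, an adhesion receptor of neural progenitors, rose from 9.31, 10.7 and 9.67 to 112, 116 and 116 CPM, against 32.7, 31.1 and 30.9 CPM in control, the highest ATG7/SQSTM1 KO level of these 15 genes. Others that rose past their control level were the proteoglycan NCAN (0.300 ± 0.106 to 6.86 ± 0.275 CPM), the guanylate cyclase subunit GUCY1A2 (0.550 ± 0.137 to 11.9 ± 0.420 CPM), the axon repellent SLIT1 (0.715 ± 0.373 to 12.3 ± 0.525 CPM), the transcription factor NEUROD6 (2.34 ± 0.293 to 24.7 ± 0.686 CPM) and neuronal nitric oxide synthase NOS1 (0.777 ± 0.120 to 8.65 ± 0.770 CPM). MKX, ARMC4, CSMD3, SMTNL2, TOX3 and the antisense RNA FEZF1-AS1 complete the 15.

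Among the 15 largest falls above the 5 CPM limit, outside the interferon response, FABP7, a fatty acid binding protein of radial glia, went from 149.8, 145 and 146 CPM in ATG7 KO to 10.6, 11.2 and 11.5 CPM in ATG7/SQSTM1 KO (13.2-fold, edgeR adjusted p = 2.96e-22). Its control libraries, at 34.2, 30.7 and 35.0 CPM, lay between. FDCSP fell from 24.0 ± 0.391 to 2.42 ± 0.139 CPM, the phosphodiesterase PDE3A from 33.8 ± 0.238 to 3.78 ± 0.513 CPM, the epithelial transcription factor EHF from 7.86 ± 0.198 to 1.01 ± 0.0770 CPM and the sodium chloride cotransporter SLC12A3 from 19.9 ± 0.627 to 2.48 ± 0.157 CPM. For each of these 5 genes the ATG7/SQSTM1 KO mean was also below the control mean. Among the most abundant genes that rose by at least 1.5-fold were MLLT11 (409 ± 12.4 to 752 ± 5.06 CPM), NDUFS5 (767 ± 33.4 to 1326 ± 56.0 CPM), CNOT1, the scaffold of the CCR4-NOT deadenylase, (620.1 ± 12.0 to 1072 ± 12.5 CPM) and SNHG29 (344 ± 15.2 to 518 ± 11.5 CPM), and among those that fell were the prelamin protease ZMPSTE24 (754 ± 15.03 to 457 ± 12.2 CPM), the chaperonin subunit CCT6A (767 ± 9.67 to 497 ± 17.3 CPM) and TFRC.

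Position along the genome went with direction in one place above others. In windows of 10 Mb with at least 20 genes of 5 CPM or more, 228 in all, the median difference ran from −0.39 to 0.61. The highest, on chromosome 16 (50 to 60 Mb, GRCh38), held 58 such genes, of which 50 rose and 6 fell, beside 33.2% higher among all 11946 genes of that level. The next highest windows lay on chromosome 1, starting at bases 240000001 (median 0.39), 210000001 (0.38) and 230000001 (0.35). The chromosome 1 window starting at base 220000001 stood at 0.12. In 2 Mb steps of chromosome 16, the windows from 46 to 60 Mb had medians from 0.38 to 0.94. The window from 66 to 68 Mb, with 41 genes, had 0.33, with 2 genes of this level between them. The next window, 68 to 70 Mb, stood at −0.06, and the next below 46 Mb with over 1 gene, 30 to 32 Mb, at −0.03. The stretch from 46 to 68 Mb was chosen after its values were seen, so no test is given for it. It holds 177 tested genes, 129 of them higher and 15 lower (median 0.62). Of its 115 genes of 5 CPM or more, 94 rose and 12 fell (median 0.53), while of the other 455 genes of that level on chromosome 16, 110 rose and 198 fell (median −0.08). The summed level of its 115 genes of 5 CPM or more was 7641.16, 7637.65 and 7570.66 CPM in ATG7 KO, 11254, 11294.5 and 11172.2 CPM in ATG7/SQSTM1 KO and 6658.99 to 6699.99 CPM in control. The ATG7/SQSTM1 KO libraries thus stood above both other groups, and the median of these 115 genes was 0.77 against control, where the ATG7 KO libraries had 0.19 (these values share the same libraries).

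**Figure D4:**
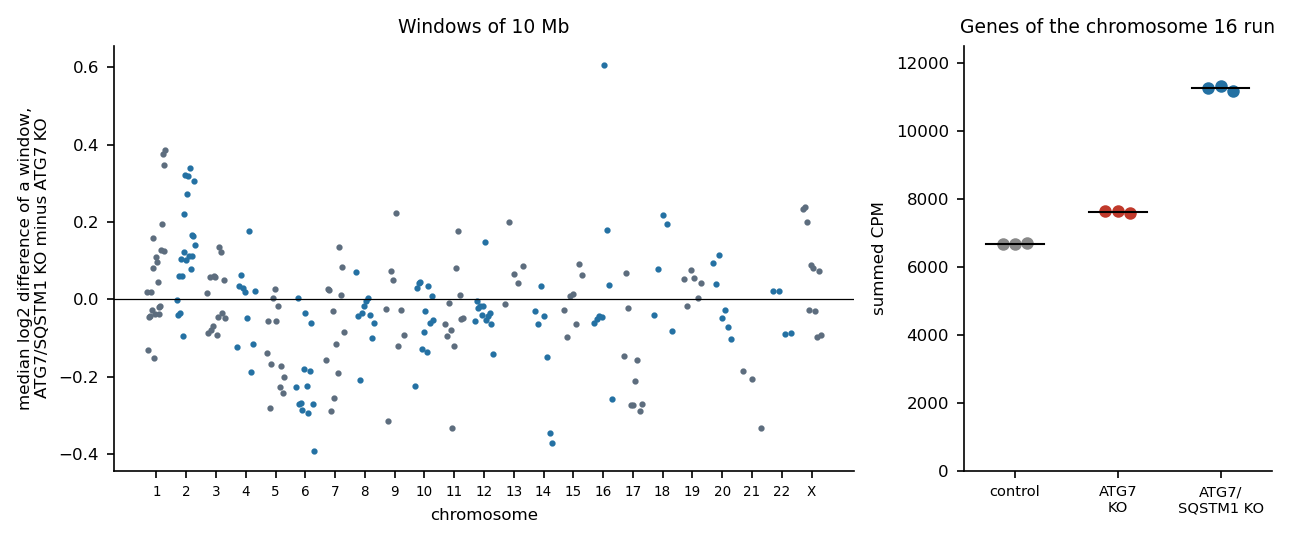
Left, median log2 difference, ATG7/SQSTM1 KO minus ATG7 KO, of each of 228 windows of 10 Mb (points, in order along each chromosome; genes of 5 CPM or more). Right, summed CPM of the 115 genes of 5 CPM or more in the chromosome 16 stretch in each library (points) with group means (bars); a single window of chromosome 16 stands at 0.61, and the ATG7/SQSTM1 KO libraries hold 11172.2 to 11294.5 CPM against 7570.66 to 7641.16 CPM in ATG7 KO.

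The stretch holds CNOT1 (chr16:58519951-58629886) and, from the 15 largest rises above the 5 CPM limit, ADGRG1 and TOX3, as well as NKD1, HERPUD1, CDH11, FHOD1 and CYLD, and the genes that fell there include SLC12A3 and NLRC5. Broadly expressed genes of the stretch, chosen here after their values were seen, rose too: NUDT21, a 3′ end processing factor, 404 ± 1.58 to 636 ± 20.4 CPM, GOT2, a mitochondrial aminotransferase, 346 ± 1.69 to 499.7 ± 2.90 CPM, and VPS35, a retromer subunit, 269.9 ± 6.06 to 382 ± 3.59 CPM. DNA copy number was not measured in these samples, and its part in these values was not tested. Whole chromosomes leaned too, by less: on chromosome 2, 552 of 1231 genes rose and 233 fell (median 0.18), whereas on chromosome 6, 182 of 963 rose and 430 fell (−0.18), on chromosome 17, 212 of 1136 rose and 479 fell (−0.15), and on chromosome 21, 35 of 214 rose and 94 fell (−0.24). Chromosome 6 holds the HLA genes, and MX1 and MX2 are 2 of the 94 genes that fell on chromosome 21. The part of these genes in the leans of their chromosomes was not tested. The lowest window median of the genome, −0.39, was on chromosome 6 from base 150000001 to 160000000, where 24 of 33 genes fell and 3 rose.

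Markers of other cell types were read in the same libraries. Of 16 blood cell markers 5 were tested, 4 fell and 0 rose. Their summed level was 10.6 to 11.7 CPM in ATG7 KO, 4.94 to 5.42 CPM in ATG7/SQSTM1 KO and 7.11 to 8.17 CPM in control. The leukocyte gene PTPRC stood at 1.47 ± 0.0666 CPM in ATG7 KO and 0.386 ± 0.0958 CPM in ATG7/SQSTM1 KO. The lineage markers CD3E, CD3D, CD2, MS4A1, CD79A and LYZ had too few counts to be tested, and the part of blood cells in the fall of immune genes was not tested. Of 9 endothelial markers 6 were tested, 4 fell, all by at least 2-fold, and 2 rose (median −1.36), with CDH5, KDR and TIE1 not tested. PECAM1 fell from 1.71 ± 0.574 to 0.413 ± 0.0652 CPM and EGFL7 rose from 9.16 ± 0.293 to 13.6 ± 0.513 CPM, and the summed level was 13.0 to 13.9 CPM in ATG7 KO, 15.9 to 16.2 CPM in ATG7/SQSTM1 KO and 12.4 to 14.1 CPM in control. Fibroblast markers fell in 6 of 12 tested cases and rose in 3. COL1A1 fell from 99.1 ± 6.82 to 35.0 ± 1.67 CPM, but PDGFRA rose from 2.23 ± 0.140 to 5.00 ± 0.0982 CPM and POSTN from 81.5 ± 1.58 to 120.5 ± 2.31 CPM. Of 10 markers of keratinocytes and airway cells, TP63 was the only one tested, falling from 9.13 ± 0.246 to 2.67 ± 0.0841 CPM.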

How the data were processed

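The series holds rRNA-depleted, strand-specific RNA-seq of 9 DMS273 libraries in 3 groups of 3. The authors deposited 1 table of raw read counts per gene, and per the submitters' processing notes reads were aligned with HISAT2 to hg38. How reads were counted (tool, annotation, strand) is not given in the sources used here. All 362598 missing cells were read as 0, since the table holds no other zeros, and 1 numbering row and 1 unlabelled column were left out. GENCODE release 29 (GRCh38) gave positions and gene types for 58503 of 67140 gene IDs, which hold 99.96% of counts. Gene symbols were those of the deposited table.

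Genes were filtered with filterByExpr (minimum count 10), scaled by TMM (factors 0.977 to 1.01) and tested with edgeR 4.0.16 (robust quasi-likelihood, R 4.3.3) in 1 fit of all 9 libraries (6 residual degrees of freedom, common biological coefficient of variation 6.39%). P-values were adjusted over 18847 genes by Benjamini-Hochberg. The scripts were tested on simulated data. Alternatives were DESeq2 1.42.0, other scalings and filters, a fit of 6 libraries, a replicate block and each library left out.

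Genes were named by a rule: the targeted genes, the 15 largest rises and falls above 5 CPM without overlap (leaving out clone-named noncoding genes, pseudogenes and readthrough genes), the 5 most abundant called genes of at least 1.5-fold in each direction, and for each of 41 lists its anchor genes and up to 6 members of smallest p in each direction. The gene lists and this choice were made with earlier results of these data known. No list was tested as a set. A few genes of the lists are not reported here by name.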

Additional observations from a re-analysis of the deposited data

How the results depend on the processing

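Between 10471 and 11411 genes were called under every alternative (11395 as reported). Leaving out 1 library gave 10748 to 10819, DESeq2 10535 and the replicate block 11262 (5682 higher, 5580 lower). Genes called at least 2-fold lower numbered 412 with a minimum mean of 1 CPM, where fewer genes were tested, against 727. With library totals in place of TMM, which moved the median of all genes by 0.04, 6273 were higher and 5138 lower. Same-numbered libraries of the knockouts correlated at 0.08, 0.04 and −0.07 in their deviations from the group means. Replicates 2 and 3 of ATG7/SQSTM1 KO correlated best with another number. With 3 libraries per group these values cannot decide whether same-numbered libraries share a batch, and the labels do not say. Of 464 called genes that the naming rule gave, 23 lost the call under some alternative and 0 changed sign. The mitochondrial share differed by 0.113 points without the 10 most abundant genes, a step that takes out most mitochondrially encoded counts, and by 0.646 to 1.18 points with 1 library left out. The longer interferon motif (the core followed by a C) was in 0.781% of all promoters, 5.82% of the 2-fold lower and 0.287% of the 2-fold higher genes. Why these values moved was not tested. Whether each knockout is a clone or a pool is not known, and counts alone cannot give DNA copy number.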
